A study of Mus musculus with 4 samples.

Results

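Pancreatic amylase (Amy2), the pancreatic lipases with their cofactor (Pnlip, Pnliprp1, Pnliprp2, Clps and Cel), the Reg proteins Reg1 and Reg2, and the trypsin inhibitor Spink3 are genes that acinar cells of the exocrine pancreas express strongly, and they are described here in RNA of mouse liver and spleen. Of these 9 genes, 8 were carried by name on the array, as 9 of its 41174 probes, among 27664 gene labels in all. Spink3 was not analysed here. Pnlip had 2 probes, and the brighter one was used.

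The RNA came from male C57BL/6J mice, 13 weeks old, kept for 4 weeks on 1 of 2 diets. The control diet, called low NP, was a purified feed with 0.03% nucleic acids, and the NP diet was that feed with 1.2% of the nucleoprotein product S-nuclegen mixed in, which brought nucleic acids to 0.5%. RNA was pooled per diet and tissue, from a number of mice that the labels do not give, so there are 4 pools: low-NP liver, NP liver, low-NP spleen and NP spleen. Each tissue was hybridised to 2 Agilent arrays with 2 colours, all on 1 slide, the NP pool carrying Cy5 on array 1 and Cy3 on array 2. Because the arrays of a tissue were read as a dye swap of one pair of pools, there is 1 replicate per diet and tissue and no p-value. Whether array 2 held pools of its own is not settled by the labels.

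Ratios below are NP over low NP on the log2 scale, as the mean of the 2 arrays, with ± for how far each array lay from it. To be called lower or higher, a gene had to pass 1.5-fold on each array with the same sign. The 8 genes were picked with their ratios in these arrays in view, so their ratios and calls are a description and not a test. Levels are normalized log2 signals of 1 probe, which may be compared between pools but not between genes. The small number of arrays limits the precision.

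The pools were checked with tissue markers before the results were read. The apolipoprotein gene Apoa1, made by hepatocytes, had a mean level of 16.9 in NP liver, 17.1 in low-NP liver and 10.2 in NP spleen, but 15.5 in low-NP spleen. The B cell receptor gene Cd79b had 16.6 in NP spleen, 16.4 in low-NP spleen and 9.63 in NP liver, but 14.2 in low-NP liver. The low-NP pool of each tissue thus held more transcripts of the other tissue's cells than the NP pool did. With 1 low-NP pool per tissue, no ratio can be given without it, and the part of this difference in the ratios below was not tested. In pooled tissue, fewer cells of a type and less RNA per cell cannot be told apart.

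As background, acinar cells make digestive enzymes and their cofactors as one secretory programme, store them in granules and release them into the duct. Pancreatic amylase cuts starch, and the pancreatic lipases cut dietary fats once colipase has anchored them to bile-salt-coated droplets. Reg proteins are small secreted proteins with a C-type lectin fold, known for rising in injured or regenerating pancreas. The pancreas lies beside the spleen, and neither liver nor spleen is known as a main source of these enzymes.

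All 8 genes were measured in every pool. Each of the 72 channel values of their 9 probes was well above background, none was saturated and none was an outlier spot. The lowest of these mean signals was 5.12 times the negative control median of its channel. No other probe on the array shares a run of 20 bases with any of them.

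Probe sequences of 60 bases are shown for Amy2, Pnliprp1, Pnliprp2 and Cel, because the values below are those of these stretches of transcript. All are in lower case, 5′ to 3′, and no part is marked.
Amy2: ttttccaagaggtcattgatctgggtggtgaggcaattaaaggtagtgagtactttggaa
Pnliprp1: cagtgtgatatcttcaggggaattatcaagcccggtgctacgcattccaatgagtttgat
Pnliprp2: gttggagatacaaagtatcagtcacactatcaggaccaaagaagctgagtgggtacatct
Cel: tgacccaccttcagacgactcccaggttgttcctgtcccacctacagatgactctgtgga

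The array files place these probes on mm7, with Amy2 at chr3:113104865-113106590 on the minus strand and Cel at chr2:28563400-28563459 on the minus strand. Pnliprp1 and Pnliprp2 lie near each other on the plus strand of chromosome 19, with Pnliprp1 at chr19:58662756-58663349 and Pnliprp2 at chr19:58696288-58696347. The spans of Amy2 and Pnliprp1 exceed 60 bases. Reg1 and Reg2 also neighbour each other, with probes on the plus strand at chr6:78446441-78446500 and chr6:78425873-78425932. The Clps probe lies at chr17:26744757-26744816 on the minus strand.

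In liver, 7 of the 8 genes were called lower in the NP pool and none higher. Across all 16961 measured genes 3.66% were called lower and 0.0708% higher, which is given for scale only, because the genes were chosen on this contrast. The median ratio of the 8 was -1.09 ± 0.10, so that the NP pool held 47.0% of the low-NP signal, while the median of all measured genes was 0.00. Reg2 stood lowest at -2.42 and Pnliprp2 highest at -0.83.

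Amy2, which cuts starch, had levels of 17.14 and 16.77 in low-NP liver on arrays 1 and 2, against 15.91 and 15.52 in NP liver. The diets did not overlap, and the ratio was -1.24 ± 0.01, or 2.37-fold lower. Mouse Amy2 is a family of near-identical gene copies, so that this probe cannot be credited to 1 copy. Amy1, which encodes salivary and liver amylase and is no member, lay at -0.22 on array 1 and -2.36 on array 2 and was not called. A probe that RefSeq assigns to the copy Amy2a5, chosen after its values were seen, had 0.02 and -0.82.

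Pnlip, the main triglyceride lipase of pancreatic juice, had 14.95 and 15.04 in low-NP liver and 13.86 and 13.79 in NP liver. Its ratio was -1.17 ± 0.08, and its second probe gave -1.03 and -0.90. Pnliprp1, a relative with little lipase activity of its own, had 13.77 and 13.68 against 12.81 and 12.80, a ratio of -0.92 ± 0.04. After loess, the NP levels of both lay below the low-NP levels by more than the distance between arrays. Both NP levels lay below both low-NP levels for 27.5% of all measured liver genes too. With each array only centred on its median, arrays 1 and 2 gave -0.06 and -1.69 for Pnlip and -0.11 and -1.26 for Pnliprp1.

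Pnliprp2, a lipase that also takes galactolipids and phospholipids, had 10.34 and 10.68 in low-NP liver and 9.82 and 9.54 in NP liver. Its array ratios were -0.52 and -1.14, so array 1 fell short of 1.5-fold and the gene was not called. Its diets still did not overlap. The arrays of the ratio, -0.83 ± 0.31, lay further apart than those of Pnlip, Pnliprp1, Clps or Cel.

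Clps, or colipase, had 14.41 and 14.42 in low-NP liver and 13.64 and 13.49 in NP liver. Its ratio was -0.85 ± 0.08, and the ratio of its lipase Pnlip minus that of Clps was -0.32 on each array. Cel, the bile-salt-dependent lipase that also cleaves cholesterol esters, had 14.60 and 14.52 against 13.57 and 13.54. Its ratio of -1.01 ± 0.02 is a 2.01-fold lower signal, nearly equal on both arrays.

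Reg1, a secreted Reg protein of acinar cells, had 13.65 and 14.09 in low-NP liver and 12.73 and 12.65 in NP liver, a ratio of -1.18 ± 0.26. Reg2, its close relative, had 12.20 and 12.87 against 10.33 and 9.91. At -2.42 ± 0.55, or 5.33-fold lower, Reg2 lay apart from the other 7 genes, which spanned -1.24 to -0.83. It was the lowest of the 8 on each liver array, at -1.87 and -2.96.

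In liver, both NP levels lay below both low-NP levels for 8 of 8 genes. The same held for 27.5% of all measured liver genes. The 8 genes were chosen on these values, and nothing is read from that count.

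**Figure D1:**
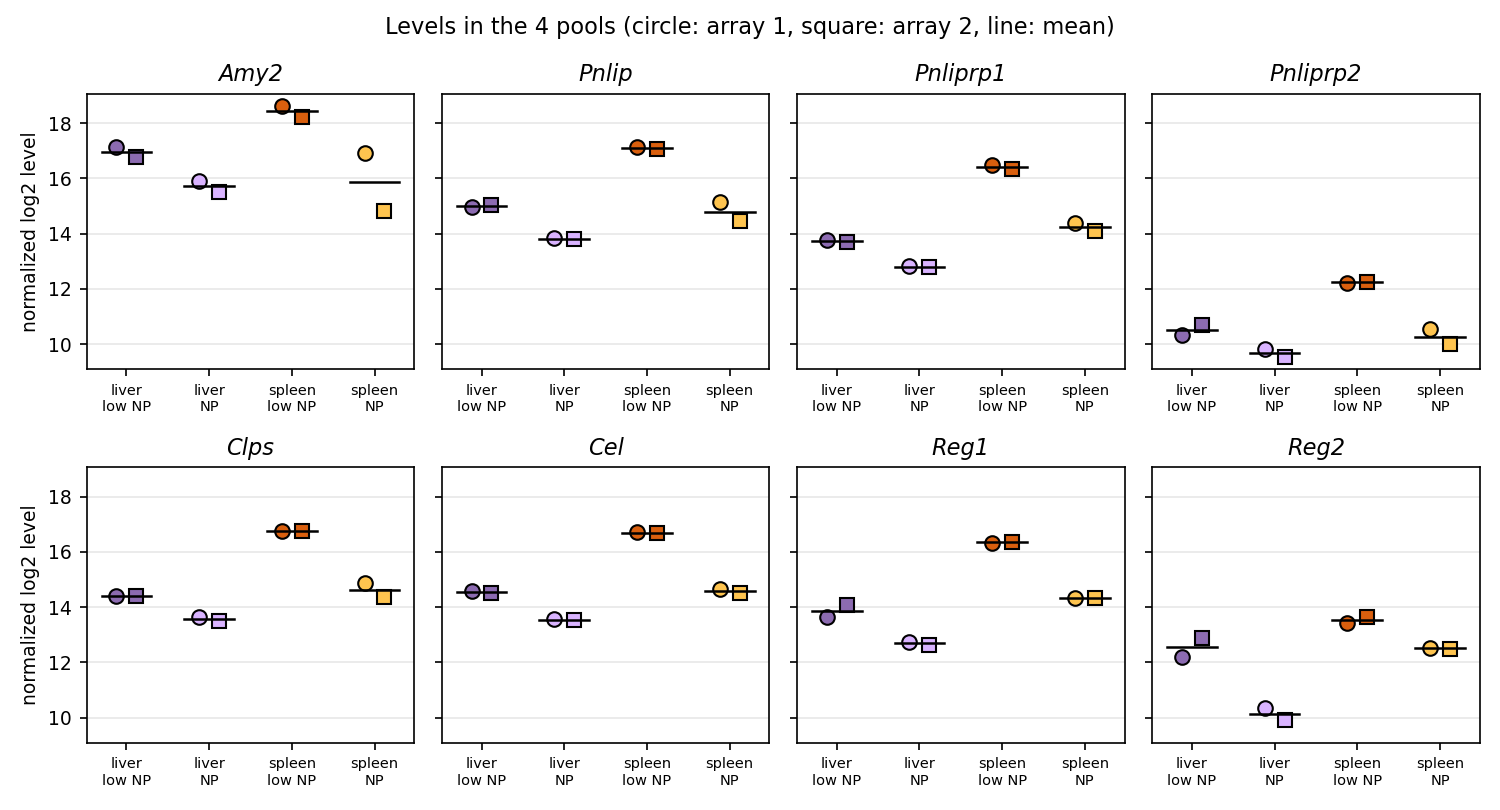
Normalized log2 levels (y axis) of each of the 8 genes in the 4 pools (x axis), with a circle for array 1, a square for array 2 and a line for their mean. Low-NP spleen is the highest pool in every panel, and Reg2 in NP liver lies furthest below its low-NP liver level, at 10.33 and 9.91 against 12.20 and 12.87.

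The liver calls turned on how the dyes were balanced. Before any correction the mean signal on liver array 1 was higher in the NP channel for 7 of 8 genes, such as 107160 against 68898 for Amy2, and on liver array 2 for 0 of 8. Reg2 was the exception on array 1, with 1091 in NP and 2462 in low NP. After loess, which removes a dye difference that depends on brightness, the medians of the 8 were -0.99 and -1.19 on arrays 1 and 2.

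When each array was only centred on its median, the liver medians parted to -0.08 and -1.56 and 1 gene, Reg2, was still called. On array 1 under that centring, Reg2 had -1.34 and the other 7 lay between -0.17 and 0.20, with Amy2 and Clps above 0. On array 2 all 8 lay between -3.28 and -1.26. The mean ratios stayed below 0 for each gene, with a median of -0.82. With the scanner software's processed signals, which carry its own dye normalization, 8 of 8 were called lower, at array medians of -1.01 and -1.06.

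**Figure D2:**
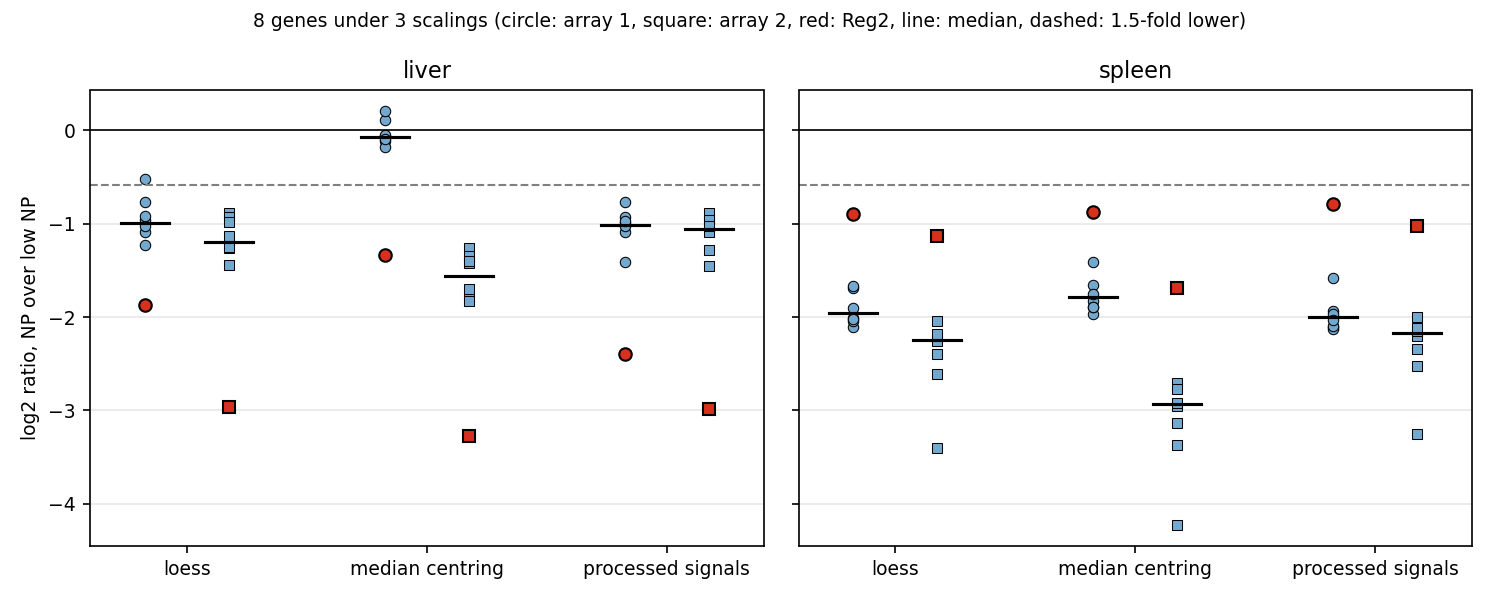
Log2 ratios of NP over low NP (y axis) of the 8 genes under 3 scalings (x axis), in liver and spleen, with circles for array 1, squares for array 2, red for Reg2 and a line for the median. The liver medians of the arrays lie at -0.99 and -1.19 after loess and at -0.08 and -1.56 after median centring, and in spleen all values stay below the dashed 1.5-fold line.

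In spleen, 8 of 8 genes were called lower in the NP pool. Across all 18403 measured spleen genes 6.36% were called lower and 0.0435% higher, again for scale only. The median ratio was -2.13 ± 0.14, so the NP pool held 22.8% of the low-NP signal, against a median of -0.02 for all measured genes. These calls held under each of the 3 scalings.

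Amy2 had 18.62 and 18.23 in low-NP spleen and 16.93 and 14.83 in NP spleen. Its NP values were the most uneven of the 8, and its ratio of -2.54 ± 0.86 combines 3.22-fold on array 1 with 10.6-fold on array 2. Pnlip had 17.14 and 17.07 against 15.13 and 14.46, a ratio of -2.31 ± 0.30, with -1.98 from its second probe. The arrays differ in size for both genes and not in direction.

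Pnliprp1 had 16.49 and 16.35 in low-NP spleen and 14.39 and 14.11 in NP spleen, a ratio of -2.17 ± 0.07. Pnliprp2 had 12.20 and 12.26 against 10.54 and 10.01, and with -1.96 ± 0.29 it was called here, unlike in liver. The difference between the tissues was not tested for either gene. The 3 relatives of the lipase family thus stood between -2.31 and -1.96.

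Clps had 16.77 and 16.76 in low-NP spleen and 14.87 and 14.37 in NP spleen, a ratio of -2.15 ± 0.24. Cel had 16.71 and 16.69 against 14.67 and 14.51, a ratio of -2.11 ± 0.07. Colipase and both kinds of lipase therefore lay within the same narrow band in spleen.

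Reg1 had 16.34 and 16.36 in low-NP spleen and 14.32 and 14.31 in NP spleen, a ratio of -2.03 ± 0.01. Reg2 had 13.41 and 13.63 against 12.51 and 12.50, a ratio of -1.02 ± 0.12. Reg2 was the least lowered of the 8 in spleen, whereas it was the most lowered in liver. In spleen too, both NP levels lay below both low-NP levels for 8 of 8 genes. The same held for 19.1% of all measured spleen genes, and nothing is read from this count either.

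**Figure D3:**
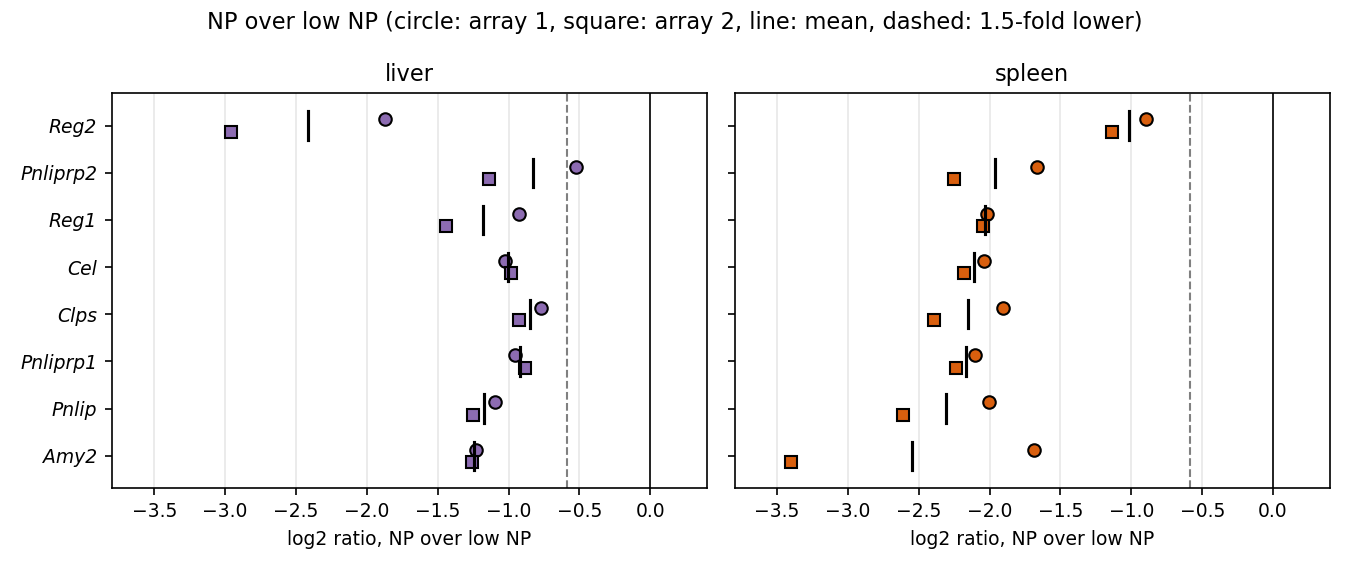
Log2 ratios of NP over low NP (x axis) for each gene (y axis) in liver and spleen, with a circle for array 1, a square for array 2, a line for the mean and a dashed line at 1.5-fold lower. Reg2 has the lowest mean in liver, -2.42, and the highest in spleen, -1.02. Pnliprp2 falls short of the dashed line on liver array 1, at -0.52.

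The 2 Reg genes parted in opposite ways in the tissues. Reg2 minus Reg1 was -0.95 and -1.52 on the liver arrays and 1.13 and 0.91 on the spleen arrays. Against the median of the other 7 genes, Reg2 lay at -1.41 in liver and at 1.13 in spleen. Reg2 was the lowest of the 8 in liver under 11 of 11 alternative settings and the highest in spleen under 11 of 11. Not all of these could change the order. The filters on dim probes left every value as it was, and the mean of all probes altered only Pnlip. The deposited table and the processed signals both put Reg2 at -2.69 in liver. Over the 11 settings Reg2 ranged from -2.96 to -1.87 in liver and from -1.28 to -0.90 in spleen.

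Among the 8 genes and 23 other acinar secretory genes, 30 of 31 had a lower ratio in spleen than in liver. This held between the arrays numbered 1 and between those numbered 2, which share only the dye orientation and are not pairs. Reg2 was the exception. The other 30 had spleen minus liver differences of -0.68 or lower. The genes were chosen with these ratios known and the share over all genes was not counted, so nothing is read from the count. Across genes, the ratios of the tissues had a Pearson r of 0.63 and a Spearman rho of 0.54 over the 7 genes without Reg2, and of -0.80 and 0.02 with it. Over the 23 other acinar genes r was 0.76 and rho 0.69. These values come from the same 4 arrays, and genes are not independent replicates.

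**Figure D4:**
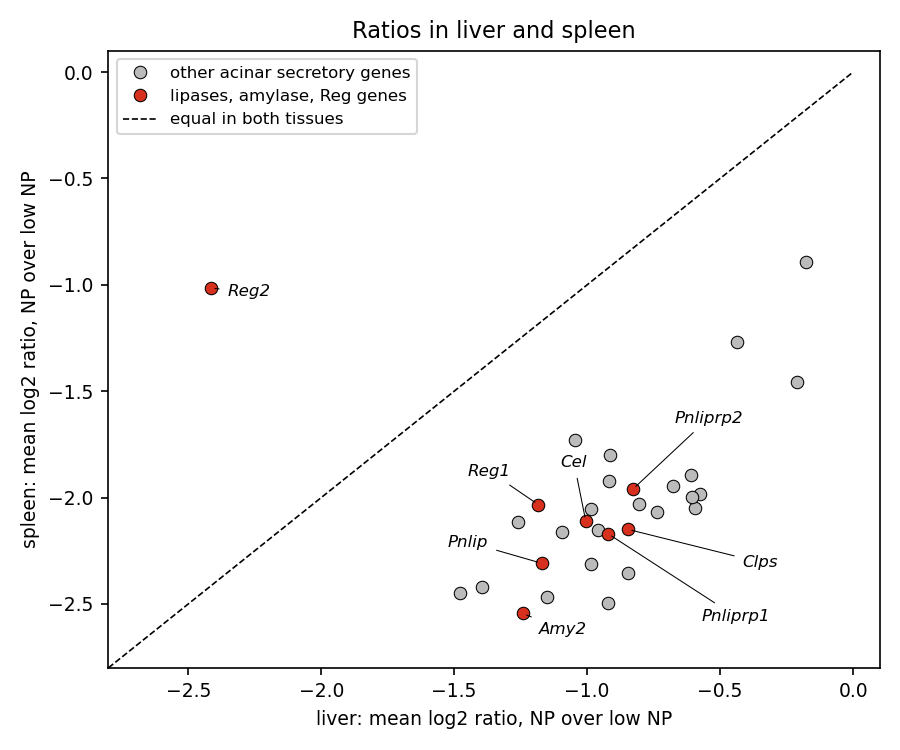
Mean log2 ratio of NP over low NP in liver (x axis) and spleen (y axis) for the 8 genes in red and 23 other acinar secretory genes in grey, with a dashed line where the tissues are equal. Reg2, at -2.42 in liver and -1.02 in spleen, is the point above the line.

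The levels also differed between the tissues. Low-NP spleen was the highest pool on every array for 8 of 8 genes, and NP liver the lowest for 7 of 8, all but Amy2. The share of all genes with this order was not counted, so these counts only describe the genes chosen. Low-NP spleen exceeded low-NP liver by a median of 2.13 on the log2 scale, or 4.37-fold, from 1.97-fold for Reg2 to 6.46-fold for Pnliprp1. NP spleen exceeded NP liver by a median of 1.05, or 2.07-fold, from 1.12-fold for Amy2 to 5.21-fold for Reg2.

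In the order of the pools, NP spleen and low-NP liver came between the highest and the lowest. Their array values overlapped for 6 of 8 genes, so those neighbours did not differ beyond their spread. For Pnliprp1 and Reg1, NP spleen lay above low-NP liver on all arrays, by 0.52 and 0.45. These comparisons set signals of different arrays side by side, and the diets of 1 tissue shared an array while the tissues did not.

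Other secretory genes of acinar cells, taken from a list, were lower as well. Of 23 measured in liver, 14 were called lower, with a median of -0.91, and after loess all 23 were below 0 on both arrays. The lowest in liver were trypsinogens and an elastase, Try5 at -1.48 ± 0.03, Prss3 at -1.39 ± 0.02, Prss2 at -1.26 ± 0.07 and Cela3b at -1.15 ± 0.12. Erp27, a chaperone of the endoplasmic reticulum, and Tmed6 lay highest, at -0.18 and -0.21. Under median centring 0 of 23 were called in liver, at a median of -0.64.

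In spleen, 23 of 23 of these genes were called lower, with a median of -2.05. The procarboxypeptidase gene Cpb1 was lowest at -2.50 ± 0.43, next to Cela3b, Try5 and Prss3 between -2.47 and -2.42. Erp27 at -0.89 and the phospholipase gene Pla2g1b at -1.27 were the least lowered. In all, 28 of 16478 genes measured in both tissues, or 0.17%, were called lower in both, and 7 of them are among the 8 genes described here and 14 are on the acinar list.

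Transcription factors known from acinar cells had a median of 0.13 in liver, with 0 of 8 called. The acinar regulators Bhlha15 and Rbpjl had -0.78 ± 0.50 and -0.10 ± 0.09 there. In spleen 3 of 8 were called lower, among them Foxa2 at -3.84 and Nr5a2 at -1.95, both of which hepatocytes express too, while Bhlha15 had -0.65 ± 0.14 and Rbpjl -0.72 ± 0.63.

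Endocrine and duct genes of the pancreas were mostly not called. None of the 6 islet markers measured in liver was called, at a median of 0.01, nor any of the 11 measured in spleen, at -0.05. The list has 18 genes, and the 6 had mean levels of only 7.73 to 8.25 in the liver pools. A fall could hardly have shown at such levels, so whether islet genes were lower in liver is not settled. The insulin gene Ins2 had levels of 7.78 and 7.68 in low-NP liver and 7.80 and 7.73 in NP liver, near the background. Its spleen ratio of -0.68 ± 0.62 combines -0.06 on array 1 with -1.30 on array 2. The duct list had medians of 0.07 in liver, with 0 of 8 called, and -0.10 in spleen, with 1 of 7 called, the osteopontin gene Spp1 at -2.55. With processed signals 2 of the 6 islet markers were called higher in liver, and the spleen medians of both lists crossed 0 under one scaling or another, at 0.07 for islets with median centring and 0.04 for ducts with processed signals.

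Relatives of the 8 genes were followed too. Of the other amylase, lipase and colipase genes, 0 of 14 were called in liver, at a median of 0.12, and 4 of 13 in spleen, at -0.34, with spleen medians of -0.56 under median centring and -0.20 with processed signals. Among those 4 were Amy1 at -2.51 ± 0.77, the hepatic lipase gene Lipc at -1.26 and Angptl4 at -0.86. Of the other Reg genes, Reg3b and Reg3d were measured in liver, at -0.60 ± 0.42 and -0.45 ± 0.30, and neither was called, although both were with processed signals. Reg3d alone of 4 was called in spleen, at -1.20 ± 0.27. Other Spink genes had 0 of 1 called in liver, at 0.03, and 0 of 2 in spleen, at 0.09.

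Genes with which the gut absorbs and carries what these enzymes release had 0 of 9 called in liver, at a median of 0.12. In spleen 5 of 8 were called lower, at a median of -1.58, or -2.50 with processed signals. These 5 were Slc2a2, Fabp2, Mgam, Mttp and Apoa4. All 5 were well above background in both liver pools, with mean levels of 11.1 to 15.5 in low-NP liver. The list is thus not particular to the gut, and which tissue the spleen signal came from was not tested. Stomach and intestine markers had 0 of 10 called in liver, at 0.01, and 4 of 11 in spleen, at -0.21, namely the fatty acid binding protein gene Fabp2 at -5.39, Tff3 at -2.47, Zg16 at -2.07 and Tff2 at -1.73. Fabp2 was also bright in both liver pools, at 15.5 in low NP and 15.4 in NP. The salivary gland list had a single measured gene, Amy1.

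Markers of the other tissue were also lower in the NP pools. In liver, 16 of 19 B cell markers and 4 of 8 spleen stroma and red pulp markers were called lower, at medians of -2.16 and -1.42, and the summed level of the B cell list was 17.1 and 17.3 in low NP against 13.9 and 13.3 in NP. With processed signals these liver lists had 19 of 19 and 7 of 8 called lower, at medians of -4.41 and -2.49. In spleen, 19 of 19 hepatocyte markers were called lower at a median of -6.17, with a summed level of 21.4 and 20.9 in low NP against 16.3 and 14.5 in NP. In their own tissue these lists had 0 genes called, with medians of 0.16 for B cells, 0.18 for stroma and 0.02 for hepatocytes, of which 6 passed 1.5-fold in opposite directions on the liver arrays. In the NP pools 15 of 19 B cell markers in liver and 18 of 19 hepatocyte markers in spleen were still well above background. Their part in the ratios of the 8 genes was not tested.

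**Figure D5:**
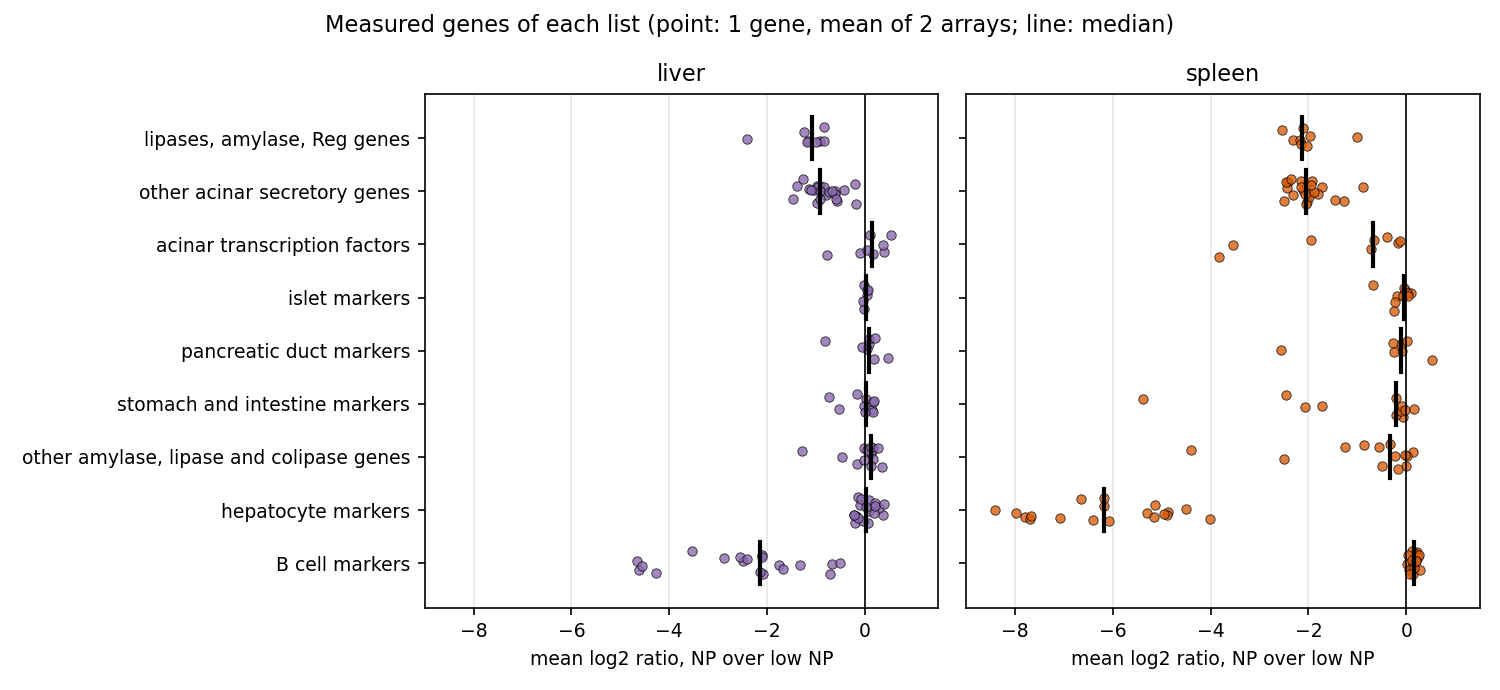
Mean log2 ratio of NP over low NP (x axis) of each measured gene of 9 lists (y axis) in liver and spleen, with a line at each list's median. The 8 genes and the other acinar secretory genes lie together in both tissues, at medians of -1.09 and -0.91 in liver and -2.13 and -2.05 in spleen.

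The profile of the 8 genes over the pools was set against that of 16470 genes. Each gene's 8 channel levels were centred on their mean, and the root mean square distance from the median profile of the 8 genes was taken. The nearest were Sycn, the granule protein syncollin, at 0.081, the pancreatic ribonuclease gene Rnase1 at 0.111, the trypsinogen gene Prss2 at 0.121 and the carboxypeptidase gene Cpa1 at 0.129. Ctrl at 0.140, 2210010C04Rik at 0.155 and Cela2a at 0.166 were also among the 8 nearest, against a median of 1.19 over all genes. The acinar list holds 7 of these 8 and 20 of the nearest 30, and 23 of the 16470 genes compared. The 8 genes and the list were chosen with results of these arrays known, so these counts are a description and not a test.

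Among the 8 genes themselves, Cel at 0.098, Clps at 0.111 and Pnlip at 0.119 lay closest to their shared profile. Pnliprp1, Reg1 and Pnliprp2 were further off, between 0.241 and 0.273. Reg2 at 0.633 and Amy2 at 0.635 lay furthest, Reg2 with opposite departures in the tissues and Amy2 with arrays that differed in NP spleen.

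Promoters of 4 genes are shown because their ratios moved together, for Cel and Pnlip, or parted, for Reg1 and Reg2. Each runs from 250 bases before to 50 after the start site, from RefSeq on GRCm38.p6, written 5′ to 3′ in the gene's direction. Capitals mark an E-box (CACCTG, which reads CAGGTG when it lies on the opposite strand), a TC-box (TTTCCC, which then reads GGGAAA) or a TATA box (TATAAA, which then reads TTTATA). They lie at chr2:28563354-28563653 on the minus strand for Cel and on the plus strand at chr19:58670115-58670414 for Pnlip, chr6:78425733-78426032 for Reg1 and chr6:78404905-78405204 for Reg2.
Cel: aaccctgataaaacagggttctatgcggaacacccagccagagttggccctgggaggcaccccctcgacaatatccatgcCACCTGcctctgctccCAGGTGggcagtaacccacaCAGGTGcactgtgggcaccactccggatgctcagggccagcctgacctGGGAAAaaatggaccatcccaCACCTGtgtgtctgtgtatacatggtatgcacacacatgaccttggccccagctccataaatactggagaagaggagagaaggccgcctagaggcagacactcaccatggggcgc
Pnlip: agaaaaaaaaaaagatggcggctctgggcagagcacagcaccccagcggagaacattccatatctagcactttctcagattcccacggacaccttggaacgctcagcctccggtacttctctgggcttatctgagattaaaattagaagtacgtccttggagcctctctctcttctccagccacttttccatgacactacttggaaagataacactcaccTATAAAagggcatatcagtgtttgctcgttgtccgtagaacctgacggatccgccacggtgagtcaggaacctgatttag
Reg1: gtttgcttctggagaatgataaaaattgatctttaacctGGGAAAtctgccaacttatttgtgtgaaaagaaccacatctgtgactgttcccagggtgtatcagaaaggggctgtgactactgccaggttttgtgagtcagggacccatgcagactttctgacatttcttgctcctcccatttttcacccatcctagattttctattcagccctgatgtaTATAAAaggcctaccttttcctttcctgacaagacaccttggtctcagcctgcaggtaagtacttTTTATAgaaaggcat
Reg2: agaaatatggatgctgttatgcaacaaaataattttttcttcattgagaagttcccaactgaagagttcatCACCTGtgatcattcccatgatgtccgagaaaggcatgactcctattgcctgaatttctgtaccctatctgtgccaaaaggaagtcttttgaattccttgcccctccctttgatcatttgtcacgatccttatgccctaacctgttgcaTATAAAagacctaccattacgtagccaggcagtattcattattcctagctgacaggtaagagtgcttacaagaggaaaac

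The acinar factor complex PTF1 binds a pair of elements, an E-box such as CACCTG and a TC-box such as TTTCCC. Promoters were found in RefSeq for 7 of the 8 genes, with Amy2 matched to Amy2a5 and Amy2b, which are among the copies that carry it as an older name, and this makes 8 promoters. CACCTG occurred in 4 of these 8 promoters, against 20.2% of all 32851 mouse promoters of that length, and TTTCCC in 4 of 8, against 25.2%. With the Amy2 copies counted as 1 gene, CACCTG occurred in 4 of 7 genes and TTTCCC in 3 of 7. Both Amy2 copies held TTTCCC at the same place, 37 bases after the start site. Cel held CACCTG at 4 places and TTTCCC at 1, Reg1 held TTTCCC and no CACCTG, and Reg2 held CACCTG and no TTTCCC. Pnlip held neither.

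The wider E-box CANNTG, which includes every CACCTG, occurred in 7 of 8 promoters, or 6 of 7 genes, and in 72.3% of all promoters. TATAAA occurred in 5 of 8, or 4 of 7 genes, against 13.6%, and lay 30 bases before the start site in Pnlip, Reg1 and Reg2. AAGGTCA, the letters that Nr5a2 can bind, occurred in 1 of 8, the Cel promoter, against 4.72%. These counts describe letters in a window on both strands and say nothing of binding.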

How the data were processed

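Total RNA of liver and spleen, pooled per diet, was hybridised to 4 arrays. The deposited scanner files hold each spot's intensity per dye (mean signal and median local background) with flags, per the file headers. Agilent Feature Extraction 9.5.3.1 made them, per the submitters' processing notes. They also carry that software's processed intensity and a log10 ratio of red to green, per the file headers. A deposited table of the series gives log10 ratios made in a way not stated in the sources used here. Its columns correlated with the scanner ratio at -0.992, 0.991, -0.993 and 0.998, so each column has low NP over NP, opposite to the direction used here. Its medians were 0.02, -0.07, -0.01 and -0.04, so it is not centred, and 1.5% to 21.1% of its features differ from the scanner ratio beyond rounding for a reason that is unknown.

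Each array had 45018 spots, 1639 of them controls. In limma 3.58.1 under R 4.3.3, mean signals were corrected with normexp (offset 50) and ratios normalized by loess within arrays, with control and outlier spots (109 to 180 per array) given no weight. Levels are log2 channel signals after loess and Aquantile, computed from the deposited intensities. Well above background were 59.3% to 94.8% of probes by array and dye, most on spleen array 1, where negative controls were brighter (156 and 307 in Cy3 and Cy5, against 62.7 and 71.9 on spleen array 2). A gene was measured where its brightest probe passed the well-above-background flag in 1 channel or more on each array. The 8 genes were matched by the name in the files. Other probes were named through RefSeq genes of GRCm38.p6, 23072 by accession, 6581 by symbol and 3074 by synonym, while 8438 kept the file's name. Tables used Python 3.11.15 with pandas 2.3.3, numpy 2.4.6 and scipy 1.17.1, and plots matplotlib 3.10.9. The calling rule was run on simulated ratios with known changes and random noise. That simulation held no dye effect, so it cannot speak to the dye balance on which the liver calls turned.

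No statistical test of the diet was run, because there is 1 replicate per group. The 8 genes, the gene lists and the settings were chosen with earlier results of these data known. Named are the 8 genes, up to 4 of the lowest and 2 of the highest measured genes of a list and every called gene of a list with 3 or fewer calls, the 8 genes of most similar profile, and Apoa1, Cd79b and Ins2 as checks of the labels. A few items that this takes in are not reported here. Alternatives changed the background correction, scaling, filter, probe choice, threshold, outlier spots, source table and arrays used.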

Additional observations from a re-analysis of the deposited data

Results flagged for a closer look

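Several lists and genes set beside the 8 had opposite directions in the tissues, on both arrays of each, and none of these differences was tested. The medians in liver and spleen were -2.16 and 0.16 for B cell markers, -1.42 and 0.18 for spleen stroma and red pulp markers, 0.13 and -0.69 for acinar transcription factors, 0.12 and -1.58 for intestinal handlers of fat and carbohydrate, 0.12 and -0.34 for the other amylase, lipase and colipase genes, and 0.01 and -0.21 for stomach and intestine markers. With each array centred on its median instead, the spleen medians of the B cell and stroma lists turned to -0.11 and -0.06. Among single genes, in liver and spleen, Cd79b had -4.62 and 0.17, Foxa2 0.53 and -3.84, Nr5a2 0.38 and -1.95, Spp1 0.47 and -2.55, Lipc 0.16 and -1.26, and Ins2 0.04 and -0.68. None of the 8 amylase, lipase and Reg genes did so.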

How the results depend on the processing

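All 176 values of single genes under alternative settings were below 0. From the main value, 15 moved by more than the standard deviation between arrays. The count of the other 161 is no measure of stability. Values from 1 array lie within that spread by construction, and the filters on dim probes left all 8 genes unchanged. For genes with 1 probe, the mean of all probes changed nothing either. In liver, median centring left 1 of the 8 genes and 0 of 23 other acinar genes called lower, with a median of the 8 of -0.82, and a 2-fold threshold left 3 and 6. In spleen 7 of 8 were called at 2-fold, where Reg2 with -0.90 on array 1 fell short, and 8 of 8 under the other settings, while median centring moved their median to -2.43. Median centring put the median of all genes at 0.06 in liver and -0.15 in spleen. Low-NP spleen minus low-NP liver had a median of 2.18 with no normalization between arrays and 2.00 with quantile normalization over all channels. With 1 array at a time the liver median ranged from -1.19 to -0.99 with 7 to 8 genes called, and the spleen median from -2.24 to -1.96.

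Counts over all genes depended more on the setting. Genes called lower in liver numbered 1326 with no background correction, 1740 with processed signals, 324 with median centring, 296 at 2-fold, 1747 in the value table and 701 to 1911 with 1 array, against 620. Genes called higher in liver numbered 297 with processed signals, 6 at 2-fold, 306 in the value table and 76 to 345 with 1 array, against 12. In spleen those called higher numbered 48 with processed signals, 3 with median centring, 1 at 2-fold, 48 in the value table and 50 to 130 with 1 array, against 8, and those called lower 772 at 2-fold and 1243 to 1671 with 1 array, against 1170. As a measure of error, 41 genes in liver and 25 in spleen passed 1.5-fold in opposite directions on the 2 arrays. No paired analysis was possible because each diet and tissue has 1 pool, which leaves no replicate pairs to block on. The ratios are already taken within each array.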
